A study of Mus musculus with 6 samples.

Results

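The genes described here code for the calponins (Cnn1, Cnn2, Cnn3), the transgelins (Tagln, Tagln2), caldesmon (Cald1), the smoothelins (Smtn, Smtnl2) and the synaptopodins (Synpo2, Synpo). They were taken by symbol from the deposited table, and all 10 were present among its 55453 genes and among the 18192 that passed the filter on low counts. RNA came from mouse aortae stripped of adventitia and endothelium, with poly(A) libraries from 2 homozygous knockout (KO) mice and 3 heterozygous control (Ctrl) mice. KO mice carried the floxed Srf allele in both copies and Ctrl mice in 1 copy, and every mouse of both groups was hemizygous for Itga8-CreERT2 and received tamoxifen in 5 daily doses of 33 mg/kg, 10 days before the aorta was taken. Itga8-CreERT2 is a tamoxifen-inducible Cre recombinase under the control of an integrin gene of smooth muscle, so recombination is aimed at smooth muscle cells, and Ctrl cells too lose 1 copy of Srf where Cre acts. Each aorta was frozen and extracted on its own. Age and sex are not given in the labels, and KO replicate 1 was not analysed here.

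As background, smooth muscle contracts when phosphorylated myosin pulls on actin filaments, and a group of actin-binding proteins sits on those filaments and tunes the process. Calponin and caldesmon bind actin and restrain the myosin ATPase in biochemical assays, transgelin bundles actin, smoothelin marks contractile smooth muscle cells, and the synaptopodins tie actin to alpha-actinin. Serum response factor, the product of Srf, binds an element called the CArG box and, with its coactivator myocardin, drives many smooth muscle genes of which Tagln and Cnn1 are textbook examples.

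Library totals ranged from 27685188 to 31873243 counts in KO and from 26177821 to 34311855 counts in Ctrl. Srf stood at 45.0 and 38.6 CPM (TMM-scaled counts relative to library size) in KO replicates 2 and 3, against 56.1, 64.4 and 68.3 CPM in Ctrl replicates 1, 2 and 3, so the groups did not overlap (log2 fold change -0.59, SE 0.122). The smooth muscle markers Acta2, Myh11, Lmod1, Myocd, Kcnmb1 and Itga8 were abundant in every library, with a summed level of 11676 and 11947 CPM in KO, against 20025 to 20900.2 CPM in Ctrl. Markers of other tissues differed between the groups as well. The 12 skeletal muscle markers summed to 1015 and 2756 CPM in KO replicates 2 and 3, against 685, 329 and 10.3 CPM in Ctrl replicates 1, 2 and 3. Brown adipocyte markers (8 genes) summed to 1050 and 1129 CPM in KO, against 281 to 716 CPM in Ctrl, and macrophage markers (12 genes) to 482 and 631 CPM in KO, against 301 to 417 CPM in Ctrl. Adipocyte markers (10 genes) summed to 4080 and 4097 CPM in KO, against 2656 to 3462 CPM in Ctrl. Erythrocyte markers (5 genes) were lower, at 23.9 and 28.9 CPM in KO, against 37.9 to 297 CPM in Ctrl. Endothelial markers (10 genes) differed within the KO group, at 1276 and 504 CPM in KO replicates 2 and 3, against 856 to 1119 CPM in Ctrl. No marker of these lists was at 0 in all libraries, and the part of other tissues in the results below was not tested. In bulk samples, fewer cells of a type and less RNA per cell cannot be told apart.

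In the KO libraries 8 of the 10 genes stood below every Ctrl library, 1 (Smtnl2) stood above, and 1 (Synpo) overlapped. The 8 lower genes were Cnn1, Cnn2, Cnn3, Tagln, Tagln2, Cald1, Smtn and Synpo2. Of all genes tested, 18.2% had KO libraries below all Ctrl libraries and 17.4% had them above. The median log2 fold change, KO over Ctrl, was -0.59 over the 10 genes, against -0.02 over all genes tested, of which 4.06% had a more negative value than the median of the 10. Together the 10 genes took 0.577% and 0.581% of all counts in KO replicates 2 and 3, against 0.890%, 0.913% and 0.823% in Ctrl replicates 1, 2 and 3.

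The call for single genes depended on the test. With edgeR's quasi-likelihood test, 0 of the 10 genes passed at an adjusted p under 0.05, as did 0% of all genes in either direction, and the lowest adjusted p of the whole table was 0.104. At an unadjusted p under 0.05 edgeR gave 8 of the 10 lower and 1 higher, beside 6.75% of all genes lower and 9.04% higher. DESeq2 called 7 of the 10 lower (Cnn1, Cnn2, Cnn3, Tagln, Cald1, Smtn and Synpo2) and 0 higher. Of the 15741 genes to which DESeq2 gave an adjusted p, it called 2.61% lower and 3.33% higher. limma-voom called 0 of the 10, beside 0.0055% of genes called lower. With the low-count filter left out, edgeR called 8 of the 10 lower, beside 1.42% of genes. Values below are edgeR's unless another tool is named.

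**Figure D1:**
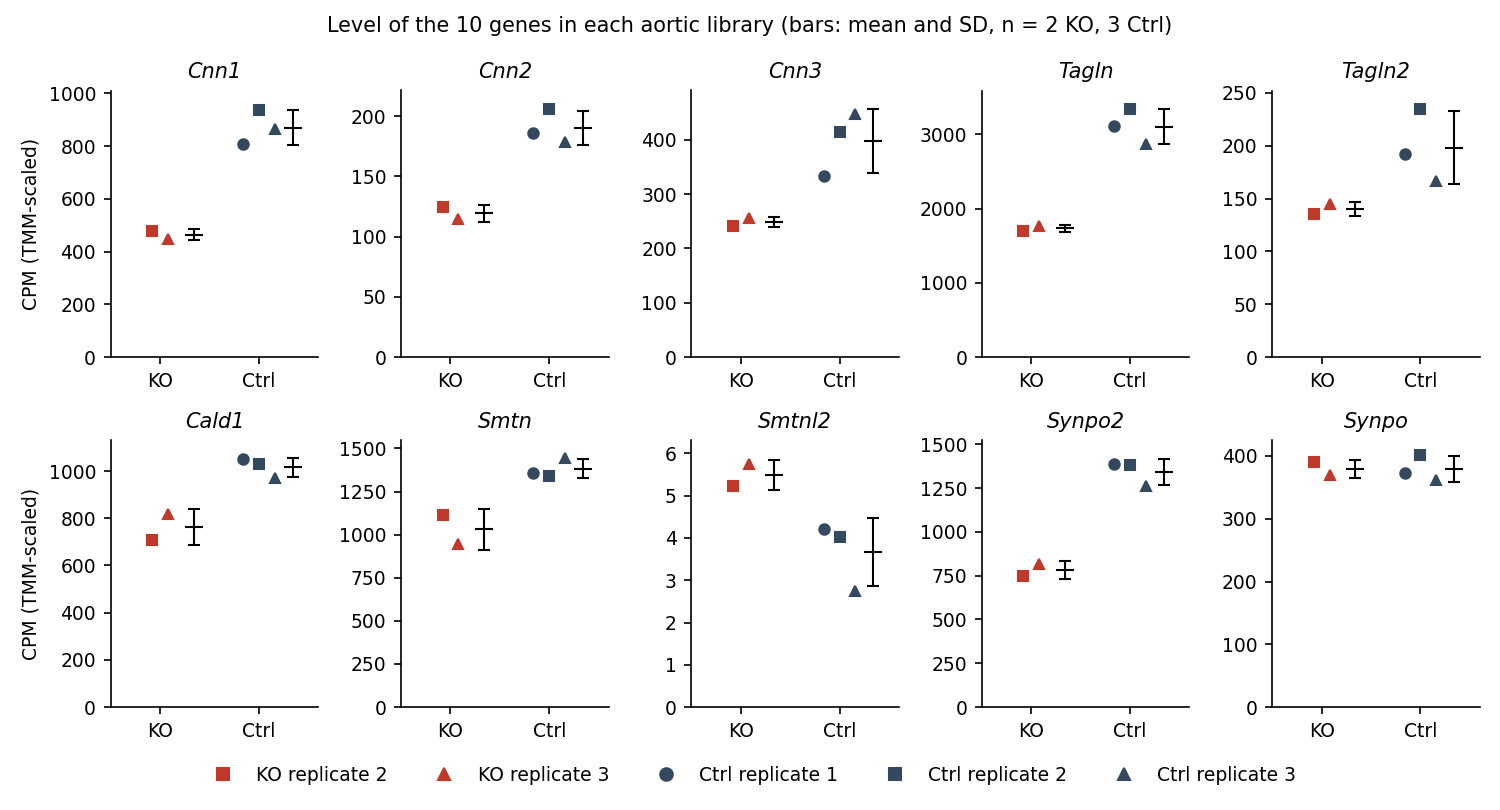
Level in CPM of each of the 10 genes in the 2 KO and 3 Ctrl libraries, with the group mean and SD. The KO libraries lie below all Ctrl libraries for 8 genes, above them for Smtnl2, and among them for Synpo.

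Calponin 1 (Cnn1, GRCm38 chromosome 9, 22099216 to 22109630), the smooth muscle calponin, stood at 479 and 449.8 CPM in KO replicates 2 and 3, against 809, 938 and 865 CPM in Ctrl replicates 1, 2 and 3. Both KO libraries were far below the lowest Ctrl library, with a gap of 0.76 on the log2 scale, while the KO libraries spanned 0.09 and the Ctrl libraries 0.21. The KO level was 53.3% of the Ctrl level (95% interval 44.5% to 63.9%), a log2 fold change of -0.91 (SE 0.111, edgeR adjusted p = 0.104, DESeq2 adjusted p = 2.65e-11). Cnn1 had the most negative fold change of the 10 genes.

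Calponin 2 (Cnn2, chromosome 10, 79988584 to 79996062), which is also made by many nonmuscle cells including macrophages, stood at 124 and 114 CPM in KO, against 186, 206 and 179 CPM in Ctrl. The groups were separate, with KO replicate 3 the lowest and Ctrl replicate 2 the highest library, as for Cnn1. Its log2 fold change was -0.67 (SE 0.105, edgeR adjusted p = 0.104, DESeq2 adjusted p = 1.05e-05). The summed macrophage markers were higher in KO, and their part in the Cnn2 values was not tested. Calponin 3 (Cnn3, chromosome 3, 121426497 to 121458207), the acidic calponin found in many nonmuscle cells, stood at 242 and 255 CPM in KO, against 333, 414 and 447 CPM in Ctrl. The groups were separate, but the Ctrl libraries spread over 0.42 on the log2 scale, about as far as the gap of 0.38 between the groups. Its log2 fold change was -0.68 (SE 0.141, edgeR adjusted p = 0.115, DESeq2 adjusted p = 0.000973). An annotated gene on the opposite strand, Gm42928, overlaps Cnn3 and stood at 1.17 to 2.07 CPM over the 5 libraries. Of the 100-base words in Cnn3 transcripts, 11.1% also occur in transcripts of other genes.

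The promoter windows of 4 of the genes are printed to show where an element of serum response factor is and is not found near the annotated start. The windows hold 250 bases before and 50 after a start in RefSeq (GRCm38.p6), and a window was read for 8 of the 10 genes, 9 windows in all because Cald1 has a pair of starts. No window was read for Tagln or Synpo. Capitals mark an exact match to the CArG box consensus in Cnn2 and a word with 1 deviating base in Cald1. Cnn2 (chr10:79988350-79988649, plus strand) holds the only exact match in the 9 windows, from 56 to 47 bases before the start (chr10:79988544-79988553). The first Cald1 window (chr6:34598254-34598553, plus strand) holds a word that deviates at 1 base, from 203 to 194 bases before the start. Cnn1 (chr9:22099003-22099302, plus strand) and Synpo2 (chr3:123236100-123236399, minus strand) are shown because their DESeq2 adjusted p-values were among the lowest of the 10 genes, and they hold no such word.
Cnn2: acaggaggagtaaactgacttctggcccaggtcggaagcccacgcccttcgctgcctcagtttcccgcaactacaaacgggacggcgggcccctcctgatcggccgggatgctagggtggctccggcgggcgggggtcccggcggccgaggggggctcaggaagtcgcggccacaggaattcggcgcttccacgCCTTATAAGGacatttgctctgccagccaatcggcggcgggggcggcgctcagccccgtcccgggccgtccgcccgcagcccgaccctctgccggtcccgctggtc
Cald1: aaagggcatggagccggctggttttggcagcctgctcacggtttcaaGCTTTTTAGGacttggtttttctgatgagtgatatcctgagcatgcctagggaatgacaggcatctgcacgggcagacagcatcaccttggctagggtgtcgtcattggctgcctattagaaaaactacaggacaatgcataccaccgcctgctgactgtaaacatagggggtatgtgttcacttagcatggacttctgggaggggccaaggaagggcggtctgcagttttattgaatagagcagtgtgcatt
Cnn1: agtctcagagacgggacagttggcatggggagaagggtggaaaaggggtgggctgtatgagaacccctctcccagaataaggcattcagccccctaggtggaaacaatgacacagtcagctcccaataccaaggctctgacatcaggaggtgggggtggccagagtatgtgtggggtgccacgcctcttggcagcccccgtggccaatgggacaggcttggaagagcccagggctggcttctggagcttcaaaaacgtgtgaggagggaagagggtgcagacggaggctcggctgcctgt
Synpo2: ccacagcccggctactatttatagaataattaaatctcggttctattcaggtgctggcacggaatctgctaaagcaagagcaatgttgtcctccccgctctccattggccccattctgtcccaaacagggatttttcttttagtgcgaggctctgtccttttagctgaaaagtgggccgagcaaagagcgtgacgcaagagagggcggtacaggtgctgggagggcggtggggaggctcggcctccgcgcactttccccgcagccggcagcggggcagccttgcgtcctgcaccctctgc
The consensus was searched along the printed strand, on which a match on either strand shows, since the element reads alike on both. Of all 32851 windows in the table, 1.63% hold an exact match and 21.1% a word with at most 1 deviating base. The letters describe these 300 bases only, and introns and more distant sequence were not searched.

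Transgelin (Tagln, chromosome 9, 45929619 to 45936058), also called SM22 alpha and a common marker of smooth muscle, stood at 1700 and 1768 CPM in KO, against 3110, 3335 and 2872 CPM in Ctrl. The groups were separate, with a gap of 0.70 on the log2 scale, and the KO libraries lay within 0.06 of each other. The KO level was 55.8% of the Ctrl level (95% interval 46.0% to 67.8%), a log2 fold change of -0.84 (SE 0.118, edgeR adjusted p = 0.104, DESeq2 adjusted p = 3.06e-10). Of its exon bases, 67.9% are overlapped by exons of genes on the opposite strand, Pcsk7 and Gm48529, and 48.3% of the 100-base words in its transcripts also occur in transcripts of those genes. Pcsk7, a proprotein convertase gene, stood at 50.8 and 42.0 CPM in KO, against 47.5, 45.3 and 54.4 CPM in Ctrl, a log2 fold change of -0.08 (SE 0.124). It was thus far below Tagln in level, and its groups overlapped. The strand setting of the counting is not stated by the labels, so the absolute Tagln level is uncertain.

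Transgelin 2 (Tagln2, chromosome 1, 172500047 to 172507380), the form made by most other cell types, stood at 135 and 145 CPM in KO, against 192, 235 and 167 CPM in Ctrl. The groups were separate by 0.20 on the log2 scale, less than the 0.49 spanned by the Ctrl libraries. Its log2 fold change was -0.50 (SE 0.152, edgeR adjusted p = 0.197), and DESeq2 did not call it (adjusted p = 0.0585). The fold change was -0.34 without Ctrl replicate 2 and -0.59 without Ctrl replicate 3.

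Caldesmon (Cald1, chromosome 6, 34598500 to 34775473), which binds actin, tropomyosin, myosin and calmodulin, stood at 709 and 816 CPM in KO, against 1049, 1029 and 969.6 CPM in Ctrl. The groups were separate, and the KO libraries differed by 0.20 on the log2 scale while the Ctrl libraries lay within 0.11. The KO level was 75.1% of the Ctrl level (95% interval 62.7% to 89.9%), a log2 fold change of -0.41 (SE 0.11, edgeR adjusted p = 0.159, DESeq2 adjusted p = 0.00929). The fold change was -0.32 without KO replicate 2 and -0.52 without KO replicate 3. The annotation lists 18 transcripts of Cald1, and which protein form each codes for was not read. Caldesmon has long smooth muscle and short nonmuscle forms, which counts per gene cannot tell apart.

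Smoothelin (Smtn, chromosome 11, 3517523 to 3540612) stood at 1115 and 947 CPM in KO, against 1359, 1341 and 1446 CPM in Ctrl. KO replicate 3 was the lowest library and KO replicate 2 lay between it and the Ctrl libraries, which spanned 0.11 on the log2 scale. The KO level was 74.6% of the Ctrl level (95% interval 61.7% to 90.3%), a log2 fold change of -0.42 (SE 0.116, edgeR adjusted p = 0.167, DESeq2 adjusted p = 0.0128). The value leaned on KO replicate 3, being -0.31 without that library and -0.55 without KO replicate 2. Opposite-strand genes overlap 16.3% of the Smtn exon bases, and 4.94% of its 100-base words occur in another gene. Of those genes, Gm11946 stood at 0.737 to 1.79 CPM and Gm11947 had no counts.

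Smoothelin-like 2 (Smtnl2, chromosome 11, 72389164 to 72411713), a relative that shares the calponin homology domain, was scarce. It had 148 and 187 counts in KO replicates 2 and 3, against 137, 136 and 69 counts in Ctrl replicates 1, 2 and 3, which is 5.23 and 5.74 CPM in KO, against 4.21, 4.03 and 2.75 CPM in Ctrl. The KO libraries were the highest of the 5, separated by 0.31 on the log2 scale, and Ctrl replicate 3 was the lowest. The log2 fold change was 0.58 (SE 0.222, edgeR adjusted p = 0.276), not called by DESeq2 (adjusted p = 0.246). From high to low, the libraries came in the order KO replicate 3, KO replicate 2, Ctrl replicate 1, Ctrl replicate 2, Ctrl replicate 3. The summed skeletal muscle markers gave the same order, as did 10 of the 12 markers singly, and so did the summed adventitial fibroblast markers (2670 and 2958 CPM in KO, against 1959 to 2646 CPM in Ctrl). Their part in the Smtnl2 values was not tested. At 137 and 136 counts, the order of Ctrl replicates 1 and 2 is not resolved for Smtnl2. KO libraries stood above all Ctrl libraries for 17.4% of all genes tested, and the share with the full order was not counted. Markers of the same tissue vary together, so the 12 are not separate evidence. Smtnl1, a relative known from smooth and skeletal muscle, stood at 2.76 and 6.63 CPM in KO replicates 2 and 3, against 3.91, 1.04 and 0.0398 CPM in Ctrl replicates 1, 2 and 3. Its highest and lowest libraries were those of the summed skeletal muscle markers and of the summed adventitial fibroblast markers too. Its groups overlapped (log2 fold change 1.47, SE 0.970, edgeR adjusted p = 0.52).

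**Figure D2:**
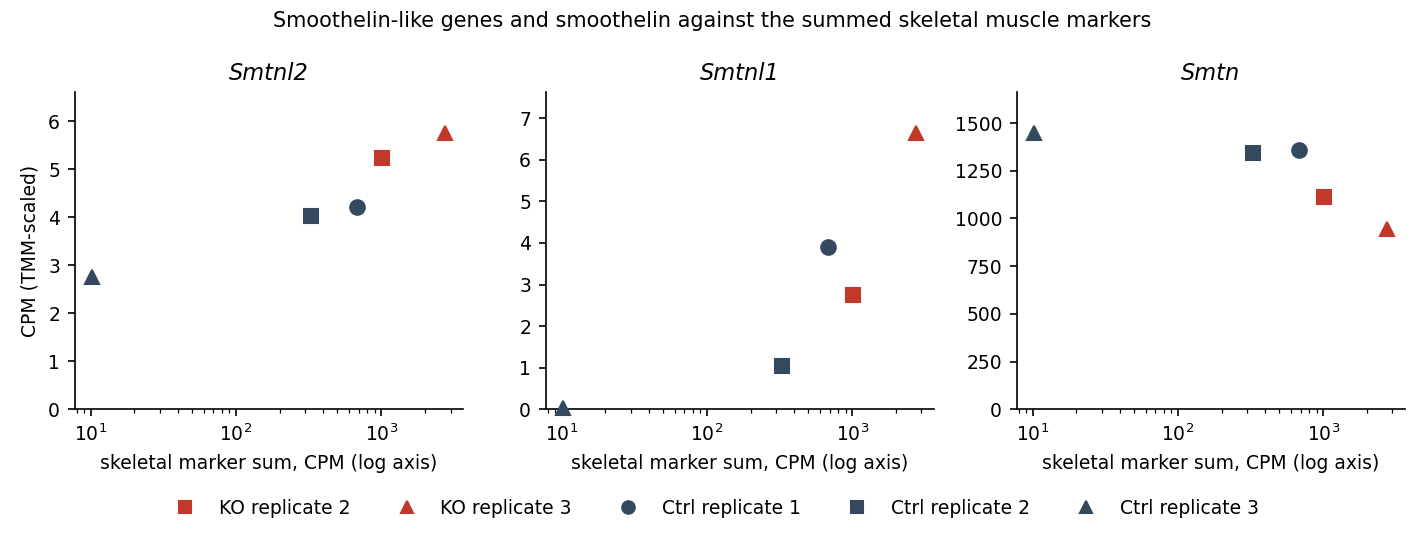
CPM of Smtnl2, Smtnl1 and Smtn in each library (vertical axes from 0) against the summed CPM of 12 skeletal muscle markers (log axis). KO replicate 3, at 2756 CPM of markers, has the highest Smtnl2 and Smtnl1 and the lowest Smtn, and Ctrl replicate 3, at 10.3 CPM, has the lowest Smtnl2 and Smtnl1 and the highest Smtn.

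Synaptopodin 2 (Synpo2, chromosome 3, 123076519 to 123236149), also called myopodin, which binds filamin and alpha-actinin in smooth and striated muscle, stood at 748 and 817 CPM in KO, against 1386, 1384 and 1259 CPM in Ctrl. The groups were separate by 0.62 on the log2 scale, with each group spanning under 0.14. The KO level was 58.3% of the Ctrl level (95% interval 48.7% to 69.7%), a log2 fold change of -0.78 (SE 0.109, edgeR adjusted p = 0.104, DESeq2 adjusted p = 1.15e-09). Synaptopodin (Synpo, chromosome 18), best known from kidney podocytes and the dendritic spines of neurons, stood at 389.8 and 369.5 CPM in KO, against 372, 402 and 362 CPM in Ctrl. The libraries of the groups interleaved, with Ctrl replicate 2 the highest and Ctrl replicate 3 the lowest. The log2 fold change was 0.0024 (SE 0.0973, edgeR adjusted p = 0.995), and its 95% interval put the KO level between 85.4% and 117% of the Ctrl level. The intervals of Synpo2 and Synpo did not overlap, but such intervals are for single genes and do not test the pair, whose ratio is compared below. Synpo2l, the other member of that family, stood at 23.4 ± 1.19 CPM in KO (SD, n = 2), against 24.0 ± 5.35 CPM in Ctrl (SD, n = 3), and Tagln3, the neuronal transgelin, was scarce, at 0.598 ± 0.196 CPM in KO (SD, n = 2) and 0.612 ± 0.12 CPM in Ctrl (SD, n = 3).

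**Figure D3:**
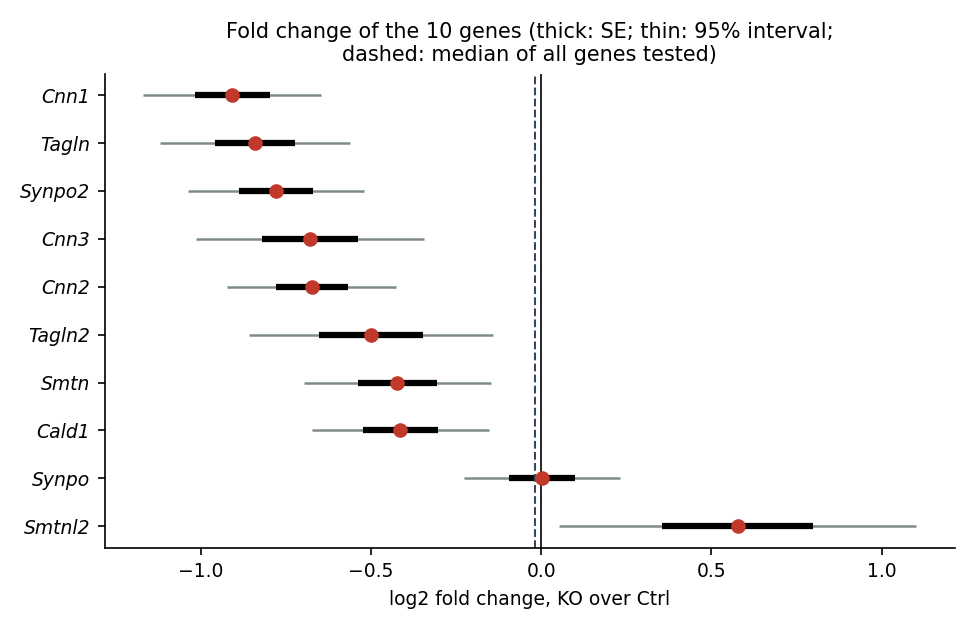
Log2 fold change, KO over Ctrl, of the 10 genes with the standard error (thick) and 95% interval (thin), and the median of all genes tested (dashed, -0.02). The values run from -0.91 for Cnn1 to 0.58 for Smtnl2, and Synpo sits at 0.0024.

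Levels of different genes were compared as CPM per kilobase of exon, the length being the union of all annotated exons. Tagln was the highest of the 10 in both groups, at 872 ± 24.2 CPM per kilobase in KO (SD, n = 2) and 1562 ± 117 in Ctrl (SD, n = 3). Smtn came next in KO, at 235 ± 27.1, ahead of Cnn1 at 169.7 ± 7.49. In Ctrl the levels of Cnn1, at 318 ± 23.7 CPM per kilobase, and of Smtn, at 316 ± 12.8, lay within their spread. Cnn3 (81.8 ± 3.23 in KO and 131 ± 19.3 in Ctrl) was followed in KO by Tagln2 (67.3 ± 3.35), Cald1 (63.3 ± 6.24) and Synpo2 (59.8 ± 3.73), neighbours whose differences are about as large as their spread. In Ctrl these levels were 95.1 ± 16.6 for Tagln2, 84.4 ± 3.43 for Cald1 and 103 ± 5.54 for Synpo2. Cnn2 stood at 48.5 ± 2.88 CPM per kilobase in KO and 77.3 ± 5.77 in Ctrl, Synpo at 39.8 ± 1.50 in KO and 39.8 ± 2.18 in Ctrl, and Smtnl2 at 1.44 ± 0.0949 in KO and 0.960 ± 0.21 in Ctrl. Because long genes with many unused exons are understated on this scale, Cald1 and Synpo2, with 12041 and 13089 exon bases, may stand higher than shown.

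Within the summed level per kilobase of the 10 genes, the mixture shifted. Tagln took 52.2% and 54.2% of it in KO replicates 2 and 3, against 58.4%, 58.0% and 55.4% in Ctrl replicates 1, 2 and 3. Smtn took 15.5% and 13.2% in KO, against 11.6%, 10.6% and 12.7% in Ctrl, and Synpo 2.50% and 2.36% in KO, against 1.46% in each Ctrl library. The shares of Tagln were thus lower in KO than in any Ctrl library, and those of Smtn and Synpo higher, without this being tested. Shares of Cnn1 were also lower in KO than in any Ctrl library, and those of Tagln2, Cald1 and Smtnl2 higher. Shares of a sum depend on each other, so a higher share need not be a higher level. Synpo itself stood at 39.8 CPM per kilobase in both groups, and Smtn at 235 in KO, against 316 in Ctrl.

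Ratios of related genes within a library do not depend on how libraries are scaled, and 5 pairs were compared by an exact two-sided permutation test over libraries, in which 2 against 3 libraries cannot give a p below 0.1. The Synpo2 to Synpo ratio was 1.92 and 2.21 in KO replicates 2 and 3, against 3.72, 3.44 and 3.47 in Ctrl replicates 1, 2 and 3. The mean log2 ratio differed by -0.78, KO minus Ctrl (exact permutation p = 0.1, adjusted over 5 pairs 0.167), while the SD was 0.145 among KO libraries (n = 2) and 0.0623 among Ctrl libraries (n = 3). Both KO libraries lay below the Ctrl range by more than the span of either group.

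The ratio of Cnn1 to Cnn2 was 3.85 and 3.94 in KO, against 4.35, 4.55 and 4.84 in Ctrl, a log2 difference of -0.23 (exact permutation p = 0.1, adjusted p = 0.167). Cnn1 to Cnn3 stood at 1.98 and 1.76 in KO, against 2.43, 2.27 and 1.94 in Ctrl, and here Ctrl replicate 3 lay among the KO libraries (log2 difference -0.24, exact permutation p = 0.3, adjusted p = 0.3). For Tagln to Tagln2 the ratio was 12.6 and 12.2 in KO, against 16.2, 14.2 and 17.2 in Ctrl, a log2 difference of -0.35 with separate groups (exact permutation p = 0.2, adjusted p = 0.25). In each of these 3 pairs the mean ratio of the smooth muscle form to its relative was lower in KO, by less than for Synpo2 and Synpo. Smtn to Smtnl2 stood at 213 and 165 in KO, against 323, 333 and 527 in Ctrl, a log2 difference of -1.02 (exact permutation p = 0.1, adjusted p = 0.167), which combines a lower Smtn with a higher Smtnl2.

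**Figure D4:**
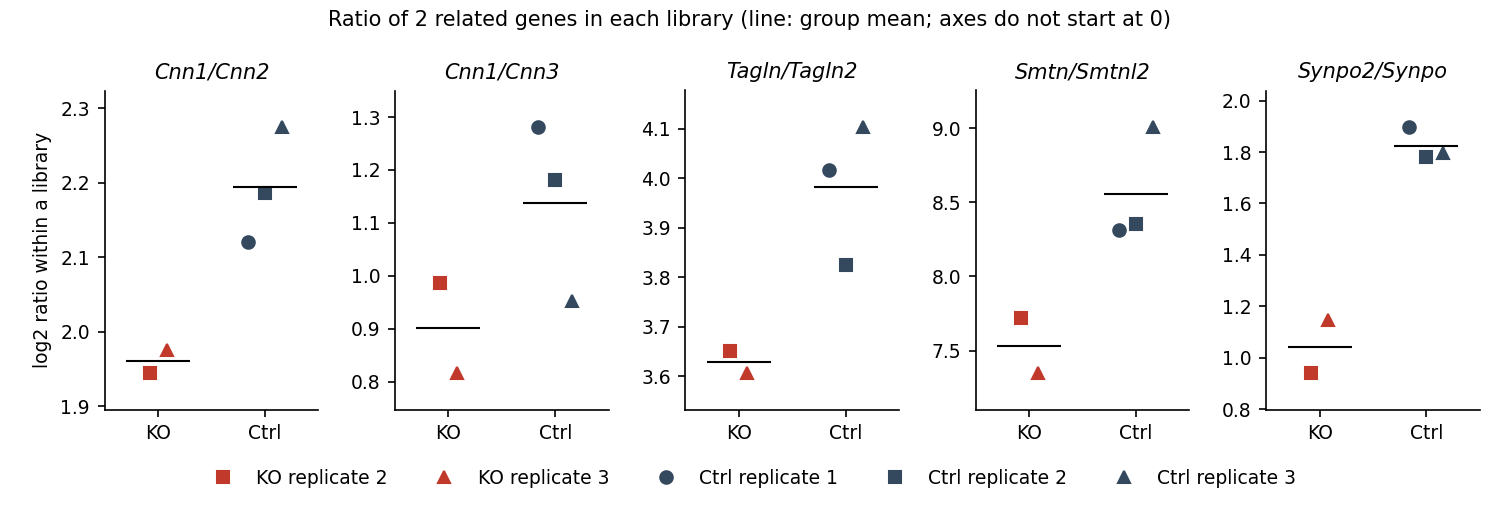
Log2 ratio of related genes within each library for 5 pairs, with group means as lines (the vertical axes differ and do not start at 0). The KO libraries lie below all Ctrl libraries in 4 pairs, and Cnn1 to Cnn3 overlaps.

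The genes whose proteins work with these 10 were read from lists chosen with earlier results of these data known. Of the 15741 genes with a DESeq2 adjusted p, 2.61% were called lower and 3.33% higher. Of the genes tested by edgeR, 18.2% had KO libraries below all Ctrl libraries. Of 15 partners of the actin filament, DESeq2 called 12 lower and 0 higher, and edgeR 0, with a median log2 fold change of -0.61 and 13 of the 15 below all Ctrl libraries. The largest values were those of Actg2 (-0.94, SE 0.128) and Acta2 (-0.90, SE 0.133), the smooth muscle actins on which calponin and transgelin sit, and of the filamins Flna (-0.75, SE 0.132) and Flnc (-0.70, SE 0.173). Set against Acta2 within each library, without a test, Cnn1 differed by -0.01 and Tagln by 0.06 between KO and Ctrl on the log2 scale, whereas Cald1 differed by 0.48, Smtn by 0.47 and Synpo by 0.90. Synpo2 differed by 0.12, Cnn2 by 0.22, Cnn3 by 0.23, Tagln2 by 0.41 and Smtnl2 by 1.49. By these group means, Cnn1 and Tagln kept nearly the same proportion to smooth muscle actin in both groups. The rest of the 10 genes had a higher mean relative to it in KO. For Synpo2 and Cnn3, as for Cnn1 and Tagln, the ratios to Acta2 in single libraries overlapped between the groups. The choice of reference matters. Set against Myh11, Cnn1 differed by -0.13, Tagln by -0.06 and Synpo2 by -0.0048, while Cald1 differed by 0.36, Smtn by 0.35 and Synpo by 0.78.

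Of 11 genes of myosin and its phosphorylation, DESeq2 called 7 lower and 0 higher and edgeR 0, with a median of -0.63. The share called lower among all genes with a DESeq2 adjusted p was 2.61%. Myl9, the regulatory light chain, gave -0.81 (SE 0.123), Myh11, the smooth muscle heavy chain, -0.77 (SE 0.121), Myl6, the essential light chain, -0.76 (SE 0.099), Ppp1r12a, the targeting subunit of myosin phosphatase, -0.75 (SE 0.135), and Mylk, myosin light chain kinase, -0.63 (SE 0.102). Of 15 kinases and calcium sensors that act on these proteins, DESeq2 called 2 lower and 0 higher and edgeR 0, with a median of -0.19. Rock1, a kinase that promotes contraction, gave -0.85 (SE 0.19) and Camk2g -0.40 (SE 0.0924), the 2 that DESeq2 called. Rock2 gave -0.34 (SE 0.134), Pak1 0.40 (SE 0.194) and Cdk1 0.38 (SE 0.355).

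**Figure D5:**
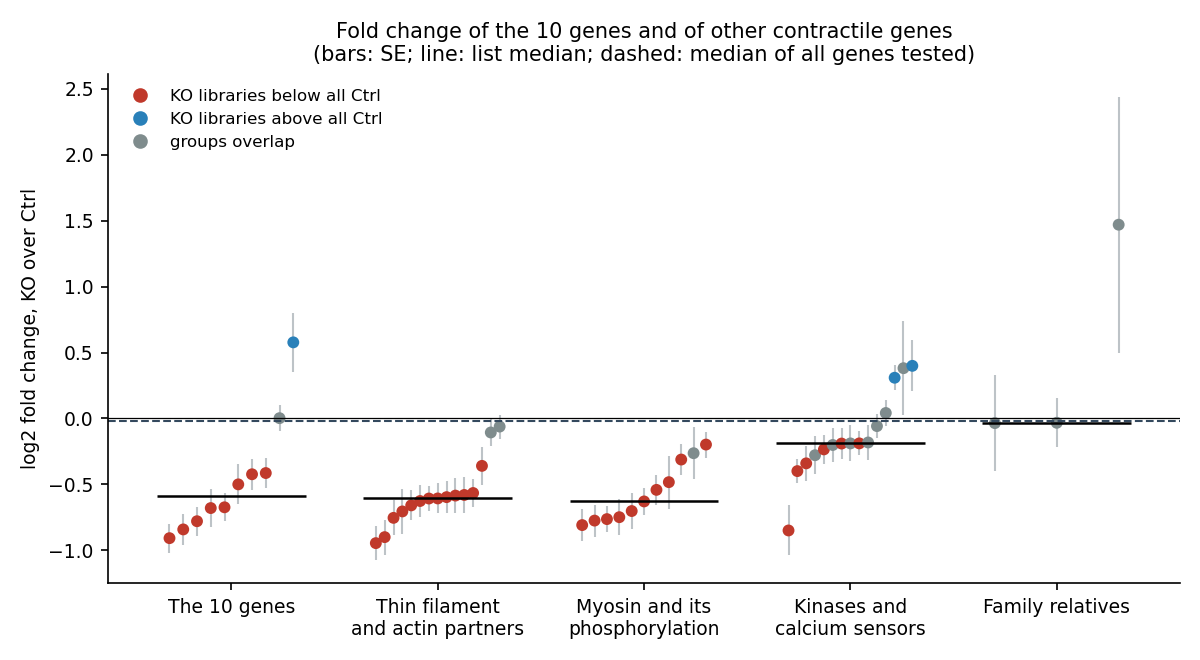
Log2 fold change, KO over Ctrl, with SE, of each tested gene in 5 lists, coloured by whether the KO libraries lie below, above or among the Ctrl libraries. List medians (lines) are -0.59 for the 10 genes, -0.61 for actin partners, -0.63 for myosin genes, -0.19 for kinases and calcium sensors and -0.03 for the family relatives, and the dashed line is the median of all genes tested.

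Genes with a pattern over the 5 libraries most like that of Cnn1 were sought among 9653 genes outside the 10, with a mean of at least 10 CPM. Likeness was the root mean square difference in log2 CPM after each gene was centred on its own mean. The nearest were Acta2 (0.0502), Actg2 (0.0668), Bves (0.0715), Mcam (0.0957) and Tnfrsf11a (0.103). Nearest to Tagln outside the 10 were Acta2 (0.0555), Kcnmb1 (0.065), Lpp (0.0721), Tspan2 (0.0749) and Rhobtb1 (0.0759). Within the 10, Synpo2 lay nearer to Tagln (0.0502) than Acta2 did. Cnn1 and Tagln differed by 0.0878, less than Mcam and Tnfrsf11a differed from Cnn1. Mcam, an adhesion molecule of mural cells, stood at 428 and 426 CPM in KO, against 671, 946 and 762 CPM in Ctrl, and Lpp, a LIM protein of focal adhesions, at 1654 and 1739 CPM in KO, against 2814, 2891 and 2557 CPM in Ctrl. Among 8 other genes of mural cells, chosen with earlier results known, DESeq2 called Mcam and Cspg4 lower and no other. Of all genes with a DESeq2 adjusted p, 2.61% were called lower, and the median log2 fold change of the 8 was -0.12. Notch3 gave -0.05 (SE 0.14), Pdgfrb 0.18 (SE 0.181) and Ebf1 -0.0044 (SE 0.0843), each with overlapping groups.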

How the data were processed

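Per the labels' protocols, aortae were frozen singly, and a stranded mRNA kit was used. The submitters' processing notes name fastp 0.20.0, STAR 2.7.0f, Subread 1.6.4 with featureCounts, and the build GRCm38. Annotation release and strand setting were not given in the sources used here. The deposited values are raw counts per gene symbol in 5 libraries, with totals from 26177821 to 34311855. Nothing states that libraries are more than separate aortae, so p-values cover the spread among them.

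All genes passing filterByExpr (18192) were scaled by TMM and compared between groups by quasi-likelihood F tests in edgeR 4.0.16 under R 4.3.3, with 3 residual and 4.01 prior degrees of freedom. The p-values were adjusted by Benjamini-Hochberg over all genes at 0.05. DESeq2 1.42.0, limma-voom (limma 3.58.1), other scalings and filters, a replicate block and each library left out were alternatives. The scripts were tested on simulated data. Log2 ratios used a prior count of 2. Gene positions and exon lengths come from GENCODE M21 (GRCm38).

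The members, lists and tests were chosen with earlier results of these data known. Genes named are the 10, their 3 relatives, Srf, and from each partner list the 4 largest changes and the 2 most abundant. The 5 genes outside the 10 nearest to Cnn1 and to Tagln are named as well. Overlapping neighbours, mural genes and marker lists were named after their values were seen.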

Additional observations from a re-analysis of the deposited data

How the results depend on the processing

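The median log2 fold change of the 10 genes stayed negative under all alternatives run, from -0.60 to -0.51, and 9 of the 10 genes kept their direction in every one. Synpo, at 0.0024, turned negative with the replicate block (-0.0090) and ranged from -0.039 to 0.063 with each library left out; it was negative without KO replicate 2 (-0.039), Ctrl replicate 1 (-0.0093) or Ctrl replicate 3 (-0.012). The number of the 10 genes called lower was 0 in the edgeR and limma-voom fits with a filter, 7 by DESeq2 and 8 by edgeR with no low-count filter, where the prior degrees of freedom were 29.5 instead of 4.01. Over all genes DESeq2 called 411 lower and 524 higher, edgeR with no filter 432 lower and 982 higher, and limma-voom 1 lower. With each library left out, 0 to 9 genes were called lower and 0 to 139 higher, the most of both without Ctrl replicate 2, and 1 higher without KO replicate 3; the cause was not tested. None of the 10 was called in those fits. Where 1 KO library remained, its variation was taken to equal that of the others. The replicate block gave 2 genes lower and 3 higher. Deviations of same-numbered libraries from their group means had correlations of -0.0099 (replicate 2) and -0.19 (replicate 3). Over all pairings of a KO with a Ctrl library the range was -0.23 to 0.23. With 2 KO libraries the KO deviations mirror each other, so these values are not independent and cannot settle whether libraries were paired. The numbers are not taken as pairs. All 5 pair ratios kept their sign under other prior counts and with each library left out. Smtnl2, at 69 to 187 counts, is the gene most limited by depth.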
